A study of Saccharomyces cerevisiae S288C with 12 samples.

Results

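The map describes where overexpressed wild type Cse4 lay in budding yeast cells that lacked Psh1. Cse4 is the yeast form of CENP-A, the histone H3 variant that replaces H3 in the nucleosome of each centromere and on which the kinetochore is built. Psh1 is a ubiquitin ligase that marks Cse4 outside centromeres for destruction, so cells without it keep more Cse4 along the chromosome arms. The members were chosen by strain alone: every region in the merged list of strain YMB8953, which carried wild type Cse4, and every peak of its 2 immunoprecipitated libraries. They comprised 2635 of the 9198 regions in the merged lists of 3 strains, 3123 peaks in replicate 1 and 4720 peaks in replicate 2, from 2 of the 12 samples of the series. The merged regions used 2790 and 2710 of these peaks.

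The cells were psh1Δ and carried pGAL-6His-3HA-CSE4, wild type Cse4 with 6His and 3HA tags driven by the GAL promoter, per the labels. They were grown at 30 °C in 2% raffinose and then received 2% galactose for 2 h, which switches the GAL promoter on. The signal is therefore that of overexpressed, tagged Cse4 and not of Cse4 at its natural level. Chromatin sheared to about 100 bp was collected on anti-HA beads and sequenced. The labels do not say that both replicates came from separate cultures, so the spread between them may be technical. With 1 group of 2 libraries no test was possible, and values are given per library, with mean ± SD (n = 2) where they were averaged. Coordinates are sacCer3.

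Both libraries gave a map of many modest peaks and few strong ones. The authors' fold, the pileup of reads at a peak's summit over a local background, had a median of 1.66 in replicate 1 and 1.48 in replicate 2. It ranged from 1.20 to 4.06 in replicate 1 and from 1.11 to 3.71 in replicate 2. A fold of 2 or more was reached by 490 peaks of replicate 1 (15.7%, 95% Wilson interval 14.5 to 17.0%) and by 312 peaks of replicate 2 (6.61%, 5.94 to 7.35%). Peaks covered 995 kb in replicate 1 and 1634 kb in replicate 2, which is 8.27% and 13.6% of the annotated span, with a mean of 1315 ± 452 kb. The mean number of peaks was 3921.5 ± 1129. Replicate 2 was the deeper library: its genome background, recovered from the fold and p of each peak, was 126 fragments per base against 59.5 in replicate 1. Its part in the longer list was not tested. Intervals cover counting error only.

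The merged list held the places where peaks of both libraries overlapped. Each of the 2635 regions joined peaks of both libraries. In 2436 regions it was 1 peak from each, and in 199 it was more, up to 6 in all. The regions covered 1238 kb, or 10.3% of the span, and were 130 to 3980 bp long with a median of 384 bp. Each spans the full extent of its joined peaks, so they cover more than the 834 kb that lay under peaks of both libraries. The authors' mean fold of the joined peaks had a median of 1.62. It was 2 or more in 303 regions (11.5%) and 3 or more in 6.

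Most of the shorter list lay inside the longer one. Of the replicate 1 peaks, 2790 (89.3%, Wilson interval 88.2 to 90.4%) were overlapped by a replicate 2 peak, and of the replicate 2 peaks 2710 (57.4%, 56.0 to 58.8%) were overlapped by a replicate 1 peak. The libraries shared 834 kb, a Jaccard index of 0.465. Each overlapped replicate 1 peak was paired with the replicate 2 peak that overlapped it most, so a replicate 2 peak could enter more than 1 pair. In these 2790 pairs the summits lay a median of 8 bp apart, 60.5% within 50 bp and 683 on the same base. In 80 pairs they were more than 500 bp apart. The strongest sites were found in both libraries most often. In replicate 1 the tenth of peaks with the highest fold was overlapped in 99.7% and the tenth with the lowest in 83.0%, and in replicate 2 these shares were 91.1% and 36.2%. All of the top 100 peaks by fold in replicate 1 and 98 of the top 100 in replicate 2 had a partner in the other list, but only 45 had a partner among the other library's top 100.

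The order of fold was shared in part. Over the 2790 pairs the fold had a Spearman rho of 0.524 and a Pearson r of 0.616, given as a description, since peaks of 1 library share its depth and are not replicates. The fold was higher in replicate 1 in 1854 pairs (66.5%), with a median ratio of 1.07.

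**Figure D1:**
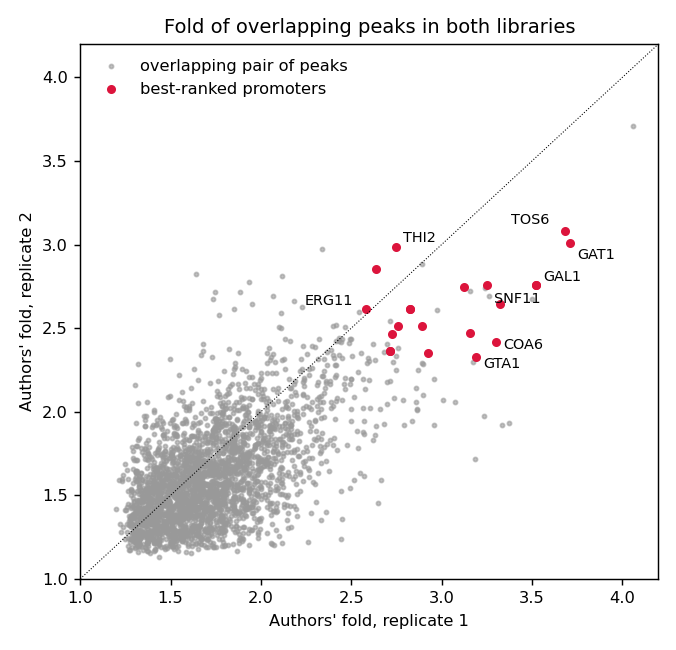
Authors' fold of each overlapping peak pair in replicate 1 (x axis) and replicate 2 (y axis), 1 grey point per pair, with the best-ranked promoters in red and a dotted line where both are equal. The 2790 pairs scatter around a rising trend (Spearman rho 0.524), and 66.5% have the higher fold in replicate 1.

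The strongest promoters included those of GAT1, TOS6, GAL1 with GAL10, SNF11 and ARG8. A promoter was taken as the 500 bp upstream of the annotated start of a nuclear protein-coding gene and counted when a summit fell in it in both libraries. That held for 903 of 6002 genes, which is the background of 15% against which the gene lists given later are read. The promoters with the best mean rank over both libraries were those of GAT1, a GATA-family transcription factor of nitrogen use, and TOS6, a cell wall protein. At GAT1 the fold was 3.71 in replicate 1 and 3.01 in replicate 2, with the summit 35 bp before the gene in both. At TOS6 it was 3.68 and 3.08, with summits 179 and 245 bp before the gene. Both genes ranked among the top 3 peaks of each library.

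Next in rank was the promoter that GAL1, encoding galactokinase, and GAL10, encoding the epimerase of the same pathway, share between them. One summit at position 278795 of chromosome II served both, with a fold of 3.52 in replicate 1 and 2.76 in replicate 2 (mean 3.14 ± 0.54). This peak stood on a local background 11.8 and 14.8 times the genome background, whereas the summits of GAT1 stood on 1.63 and 1.90 times. SNF11, a subunit of the SWI/SNF chromatin remodeller, had 3.25 and 2.76, with the summit on the same base in both libraries. ARG8, an acetylornithine aminotransferase of arginine synthesis, had 3.32 and 2.65. These sites were above a fold of 2.6 in both libraries.

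Several strong promoters belonged to genes of lipid, metal and mitochondrial function. The share of such genes over the genome was not counted, so this grouping is only an order of description. OLE1, the fatty acid desaturase of yeast, had a fold of 3.13 in replicate 1 and 2.75 in replicate 2, at 155 and 160 bp before the start. ERG11, the lanosterol demethylase of ergosterol synthesis, had 2.58 and 2.61. The SD at ERG11 was 0.024, the smallest among the named promoters. COT1, a vacuolar transporter of zinc and cobalt, had 3.16 and 2.47, and COA6, a factor in the assembly of cytochrome c oxidase, had 3.30 and 2.42. SFC1, the mitochondrial carrier that exchanges succinate and fumarate, had 2.64 and 2.85. DLD1, the mitochondrial D-lactate dehydrogenase, shared its summit with PAR32, at 2.71 and 2.36.

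The remaining named promoters were those of regulators and of genes with less certain roles. THI2, an activator of thiamine synthesis genes, had 2.75 in replicate 1 and 2.98 in replicate 2, so that it ranked 42 and 4. CSM1, a subunit of monopolin, had 2.89 and 2.51, and CCR4, a catalytic subunit of the main mRNA deadenylase, had 2.73 and 2.47. The CCR4 summits lay 222 and 392 bp before the start, which puts them on different bases within 1 wide region. GYL1 had 2.76 and 2.51, GTA1 had 3.19 and 2.33, the uncharacterised YHL026C had 2.93 and 2.35, and PHM7 shared its summit with YOL085C at 2.83 and 2.62.

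In the group of 21 named genes the mean fold ran from 2.54 to 3.38, and replicate 1 was the higher library in 18. The summits of both libraries were within 1 bp of each other at 15 genes and within 100 bp at 19. They lay 26 to 494 bp before the gene. The fold chose these genes, so their high values are a description.

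Across all genes the promoter count depended on the library. Replicate 1 had a promoter summit at 1143 genes and replicate 2 at 1701, so that the 903 shared genes were 79.0% and 53.1% of each. The shared genes rested on 795 distinct pairs of summits, because 214 genes between divergent or neighbouring starts shared theirs. Genes called in replicate 1 alone (240) had a median fold of 1.64, those called in replicate 2 alone (798) had 1.43, and the shared genes had 1.73 and 1.64. The count moved with the definition: it was 404 with a promoter of 250 bp and 1755 with one of 1000 bp. With a −log10 q of at least 10 it was 225.

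Most Cse4 summits lay inside genes, but their share was below the share of the span that gene bodies cover. Summits fell inside a protein-coding gene in 59.2% of replicate 1 peaks (Wilson interval 57.5 to 60.9%) and 59.1% of replicate 2 peaks (57.7 to 60.5%), where bodies cover 73.0% of the span. A further 24.7% and 24.0% fell in a promoter but no body, and 16.04% and 16.93% in neither. A summit in both a promoter and a body was counted with the bodies, and the span of promoters outside bodies is not given here. A body summit in both libraries was found in 1346 of 6002 genes, a background of 22.4%, while replicate 1 alone gave 1583 genes and replicate 2 alone 2285. With a −log10 q of at least 10 the shared count was 210. In 223 genes both the promoter and the body held a summit in both libraries. No summit in promoter or body in either library was found for 2451 genes, a background of 40.8%.

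Inside genes the summits leaned towards the start. In the 3592 genes of 1 kb or more, the first 20% of the body held 38.3% of body summits in replicate 1 and 37.8% in replicate 2. The middle 20% held 13.0% and 12.4%, and the last 20% held 16.8% and 19.1%. Relative to an even spread, the 100 bp just before the start held 1.84 and 1.75 times as many summits, and the stretch from 100 to 199 bp into the gene 1.93 and 1.78 times. From 600 to 699 bp into the gene the values were 0.99 and 0.76. Just past the 3′ end, within 100 bp, they were 2.06 and 1.85. Neighbouring genes lie close in yeast, so a summit past one gene's end can also be a summit before the next gene's start.

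**Figure D2:**
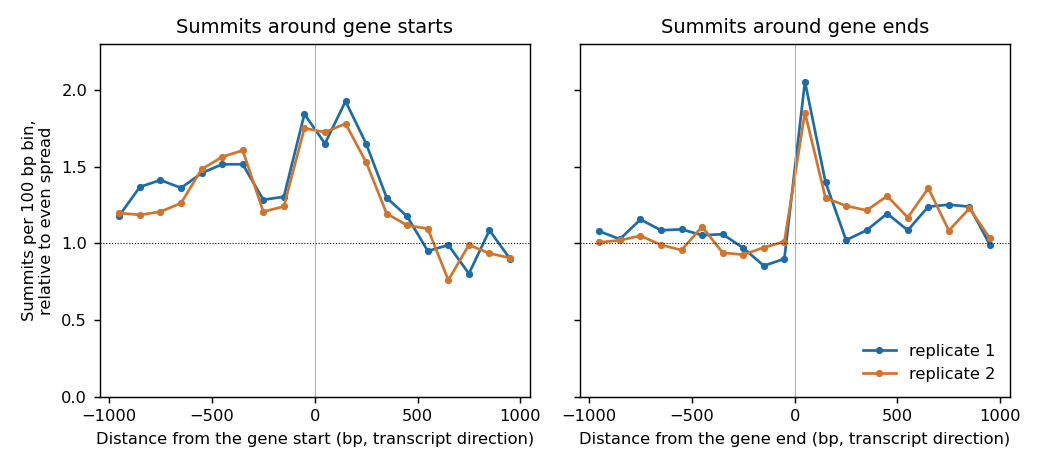
Number of summits relative to an even spread over the annotated span (y axis) in bins of 100 bp by distance from the gene start and from the gene end (x axes, bp), 1 line per library. Both libraries rise around the start and just past the end, where they reach 2.06 and 1.85, and fall below or near 1 further downstream of the start.

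Gene length went with the count of summits. The share of genes with a body summit in both libraries was 11.2% under 500 bp, rose to 27.5% between 1500 and 2000 bp and was 18.8% from 5000 bp. Summits per kb of body fell with each length class, from 0.437 to 0.045 in replicate 1 and from 0.641 to 0.070 in replicate 2. Long genes thus held few summits for their length.

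A few genes held several summits. FLO11, a large flocculin of the cell surface, held 4 in each library along its 4104 bp on chromosome IX. DAL4, the allantoin permease, held 4 in replicate 1 and 3 in replicate 2, and ENA5, a sodium pump, and YJL163C held 3 and 4. The genes AVT1 (a vacuolar amino acid transporter), CYR1 (adenylate cyclase), MDM31 (a mitochondrial inner membrane protein), PMT4 (a protein mannosyltransferase), SNF3 (a low-glucose sensor) and SPT8 (a SAGA subunit) held 3 in each. ENA5 belongs to a set of near-identical neighbours, so its reads may be split among copies.

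Along the chromosomes Cse4 was spread widely, with a modest range of density. Chromosome V was the densest, with 3.40 peaks per 10 kb in replicate 1 and 4.74 in replicate 2 (mean 4.07 ± 0.94), and IX had 3.40 and 4.50 (3.95 ± 0.78). Chromosome III had 3.09 and 4.52 (3.80 ± 1.01). Chromosome IV, the longest, was the sparsest, with 2.08 and 3.29 (2.68 ± 0.86), and XII was next with 2.49 and 3.53 (3.01 ± 0.74). The ratio of the highest to the lowest mean was 1.52. No neighbours in the order of the 16 chromosomes differed by more than their SD. That SD holds the difference in list length between the libraries, which ran the same way on every chromosome, so it does not measure how certain the order is.

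Each chromosome carried more peaks in replicate 2, by 1.32 times on IX to 1.77 times on II, against 1.51 times overall. Over the 16 chromosomes the densities of both libraries had a Pearson r of 0.861 and a Spearman rho of 0.768, and mean density fell with length (rho −0.66). These are descriptions over chromosomes of the same libraries. Within replicate 1 the exact Poisson intervals of II, IV, VII, XII, XIII, XV and XVI lay below that of V, and within replicate 2 those of IV, XII and XIII did. The 20 kb at each chromosome end held 4.55% of the peaks of replicate 1 (Wilson interval 3.87 to 5.34%) and 4.19% of those of replicate 2 (3.66 to 4.81%), on 5.32% of the span.

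**Figure D3:**
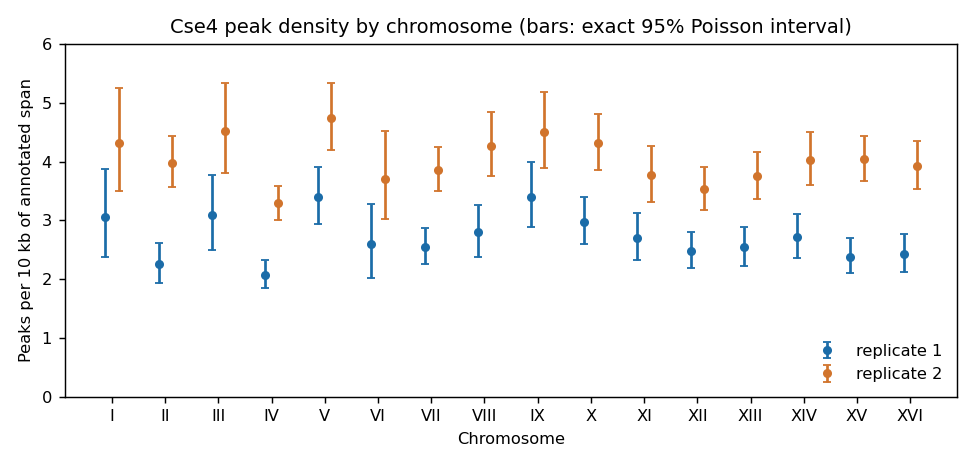
Peaks per 10 kb (y axis) on each of the 16 chromosomes (x axis) for both libraries, with exact 95% Poisson intervals as bars. Mean density runs from 2.68 on IV to 4.07 on V, and replicate 2 is higher on every chromosome.

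Regions gathered in some stretches and were missing from others. In 595 windows of 20 kb the median was 4 merged regions, and 23 windows held none. The fullest window, on chromosome XII from 380585 to 400584, held 14 regions and includes YPS1 and YPS3, which encode aspartic proteases of the cell surface. The window from 340264 on chromosome V, with MET6 (methionine synthase), held 13, and that from 380483 on IX, with FLO11, held 12. Between libraries the counts per window had a Pearson r of 0.766 and a rho of 0.774.

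The longest stretch without a merged region was on chromosome IV from 704544 to 784242, 79.7 kb with 32 genes. It was not free of single-library peaks: it held 2 in replicate 1 and 10 in replicate 2, or 0.25 and 1.25 per 10 kb, below the 2.59 and 3.92 per 10 kb of the whole span. Other such stretches lay on VIII from 504057 to 553601 (49.5 kb) and on II from 117764 to 158082 (40.3 kb). On II there was no peak of replicate 1, and replicate 2 had 1.49 per 10 kb.

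**Figure D4:**
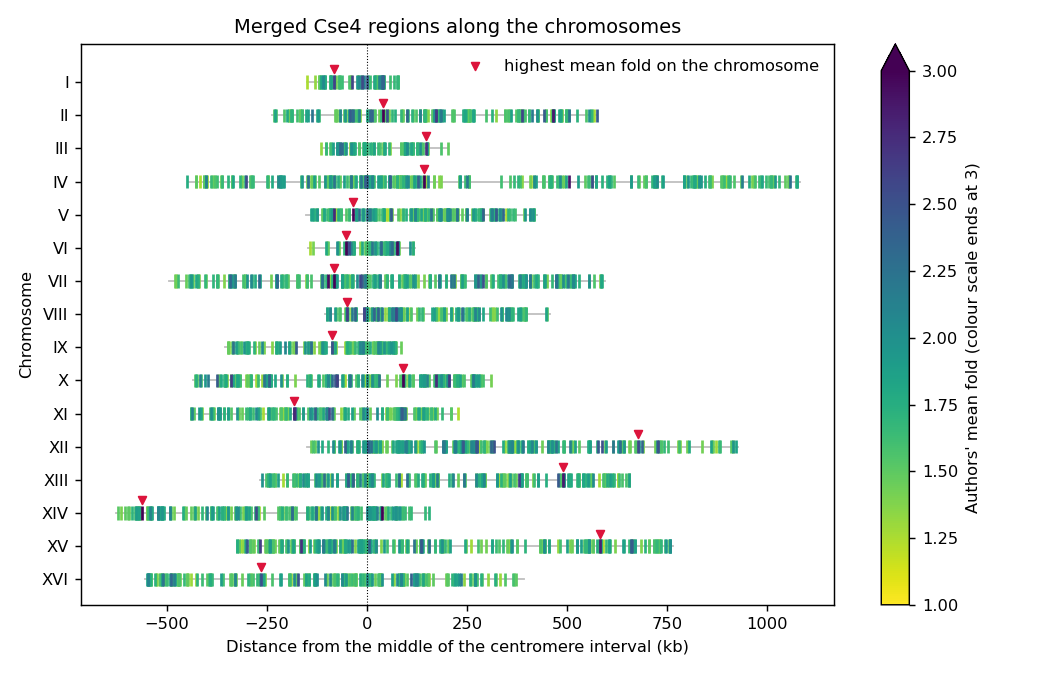
Merged regions along each chromosome (x axis, kb from the middle of the centromere interval; y axis, chromosome), coloured by the authors' mean fold, with a triangle over the region of highest mean fold on each chromosome. Regions lie on every chromosome, and the best regions are scattered along the arms.

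Centromere intervals, bounded here on each side by the first gene of that arm, held peaks on most chromosomes but did not lead the map. They were 630 to 2541 bp long. Replicate 1 had a peak in 11 of 16 and replicate 2 in 14, all 11 among them. A merged region reached into 12, since on II its replicate 2 peak entered the interval while its replicate 1 peak ended before it. None was called on VI or VII. Other intergenic intervals of such length were not counted, so these numbers do not show whether centromere intervals held more peaks than others. Over the whole span there were 2.59 peaks per 10 kb in replicate 1 and 3.92 in replicate 2. No interval was longer than 2541 bp, so 1 peak in an interval is already above that rate. The interval on V, the longest, held 2 and 3 peaks, and that on IV, of 943 bp, held 2 and 2. Peaks that only reached into an interval were counted, which raises these numbers, and the difference was not tested. On chromosome I the best fold was 2.12 in replicate 1 and 2.81 in replicate 2, on IV it was 1.94 and 2.78, and on V 2.10 and 2.51. On XI the order was the other way, with 2.68 and 1.93. The best centromere peak ranked 55 in replicate 1 and 9 in replicate 2, so that stronger peaks on the arms stood before it in both lists. Those were GAT1 and TOS6 among others, but also peaks on a raised local background. In replicate 1 the latter lay past CYC1 (rank 1), at GAL1 with GAL10 (4), at URA3 (10), at CSE4 (31) and in the rDNA (26 and 38). In replicate 2 the peak past CYC1 (rank 1) was among them.

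The best merged region of each chromosome lay near a gene start in most cases. The summit was in a promoter on 13 of the 16 chromosomes and inside a gene on 4. Those 4, inside YCR085W (III), URA3 (V), YIL046W-A (IX) and YOR316C-A (XV), also lay in a promoter, that of CSM1, TIM9, MET30 and COT1. The share of all merged regions with a summit in a promoter was not counted by this rule, so the 13 are a description. Besides the regions already described at TOS6 (XIV), GAT1 (VI), GAL1 (II), SNF11 (IV), COA6 (XIII), COT1 (XV), CSM1 (III) and YHL026C (VIII), the list held CYC3, the cytochrome c heme lyase, on I. There the fold was 3.24 in replicate 1 and 1.98 in replicate 2. DIC1, the mitochondrial dicarboxylate carrier, on XII had 2.54 and 2.60, and MET30, an F-box protein of sulfur metabolism, on IX had 2.68 and 2.35 with the summit inside YIL046W-A. UME1, a subunit of the Rpd3 deacetylase complex, on XVI had 2.62 and 2.41. On VII the region lay 903 bp before RIM8, a factor in pH signalling, with 3.24 and 2.74, and on XI 742 bp past the start of YKL097C with 2.98 and 2.61.

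The highest region of the whole map was on chromosome X from 526701 to 526918, with a fold of 4.06 in replicate 1 and 3.71 in replicate 2. It overlaps UTR1, an NAD kinase, and its summit lies 494 bp downstream of the start of CYC1, encoding iso-1-cytochrome c, beyond that gene's end. The best region of chromosome V covers URA3, the orotidine phosphate decarboxylase much used as a marker, with 3.26 and 2.69. At both places the local background was high, 7.20 and 7.68 times the genome background at CYC1 and 23.3 and 28.6 times at URA3.

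The loci named in the genotype were looked at in the same way. No peak overlapped PSH1 (XV, 228614 to 229834) in either library, a check of little weight since genes without summits are common. At CSE4 (XI, 346075 to 346764) a peak from 345825 to 346744 in replicate 1 had a fold of 2.87, and the peak of replicate 2 had 2.25. The summit was at 345982 in both, just outside the coding region, on a local background 16.01 and 19.87 times the genome background. The GAL1 to GAL10 promoter, CSE4, URA3 and the site past CYC1 thus all stood on a raised local background in both libraries. The labels name the GAL promoter, the 6His and 3HA tags and CSE4 as parts of the construct, other parts and the copy number are not given in the sources used here, and their part in these peaks was not tested.

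The widest regions were led by the ribosomal DNA. Of the 6 widest, 5 lay in the annotated rDNA copies RDN37-1 and RDN37-2 on chromosome XII and were 2761 to 3980 bp long. The highest of these, from 458659 to 461434, had a fold of 2.79 in replicate 1 and 1.92 in replicate 2, on a local background 50.7 and 61.8 times the genome background. The rDNA is a tandem repeat represented by 2 copies in the annotation, so reads from all copies gather there and its values are uncertain. Among the wide regions outside it, that on IX from 405419 to 409242, across YVH1, DAL1 (allantoinase) and DAL4, was 3824 bp long and joined 6 peaks, with best folds of 2.09 and 1.53. The region over HO, the mating-type switching endonuclease, on IV was 2240 bp long with 2.18 and 1.76. Those over ESS1, TES1 and REC107 on X (2196 bp), PWP2, YIH1 and TAH1 on III (2155 bp) and CCR4, ATS1 and FUN30 on I (2150 bp) completed the 10.

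Some peaks belonged to 1 library. The 333 replicate 1 peaks without a partner had a median fold of 1.54 and the 2010 of replicate 2 had 1.40, against 1.68 and 1.56 for those with one. The strongest unpaired peak of replicate 1 lay on IX between MMF1 and PCL7, with a fold of 2.12 and rank 312. It was followed by peaks before LYS2 (2.03), in ICL1 (2.00), in ALG13 (1.98) and near GAP1 (1.96). In replicate 2 an intergenic peak on VIII from 91652 to 91838 had a fold of 2.81 and rank 10, and the nearest replicate 1 peak was 5698 bp away. It was followed by peaks near DSE1 (2.31), in MUD1 (2.21), before RDI1 (2.16) and near YOL014W (2.16).

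Gene lists drawn from general knowledge were read against the shares of all genes, 15% for promoters, 22.4% for bodies and 40.8% for no summit, without a test. The lists were chosen with earlier results of these data known, so their shares are descriptions. Gene length was not matched, although the body share over all genes ran from 11.2% under 500 bp to 27.5% between 1500 and 2000 bp. Ribosomal protein and histone genes had the fewest summits for their number. Of the cytosolic ribosomal protein genes, a promoter summit in both libraries was found for 3 of 138, RPS9A (1.95 and 1.74), RPS0A (1.80 and 1.43) and RPS3 (1.27 and 1.37). A body summit in both was found in 1, and 128 of 138 had no summit in either place in either library. All 11 histone genes were without a summit in promoter or body. Among them was CSE4, which a peak of each library overlaps (2.87 and 2.25) with its summit outside both promoter and body. Of 25 glycolysis and fermentation genes 18 had none, and of 21 chaperone genes 15. A body summit in both libraries was found in 6 of the glycolysis and fermentation genes (24%, near the share of all genes) and in 1 chaperone gene (4.76%). The members with a promoter summit in both were PDC6 (2.13 and 1.90), ADH2 (1.84 and 1.92) and ADH3 (1.44 and 1.48), and SSA3 (1.99 and 1.65), HSP26 (1.49 and 1.42) and HSP60 (1.52 and 1.32).

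In the lists of transporters, cell wall genes and the galactose regulon, as over all genes, more members had a body summit than a promoter summit in both libraries. Of 21 amino acid permeases 9 had a body summit and 5 a promoter summit in both libraries, and 7 had none. PUT4, the proline permease, had a promoter fold of 2.07 in replicate 1 and 2.69 in replicate 2, ALP1, a basic amino acid permease, had 2.27 and 1.94, and MUP3, a methionine permease, had 1.78 and 1.99. Of 40 cell wall and flocculin genes 16 had a body summit and 6 a promoter summit in both, and 15 had none. TOS6, described above, led these promoters, followed by GAS3 (1.77 and 1.77) and PIR1 (1.89 and 1.43), which encode cell wall proteins. Among 18 hexose transporters and sensors the counts were 4 and 3, with promoters at RGT2, a high-glucose sensor (1.85 and 1.72), HXT14 (1.52 and 1.87) and HXT5 (1.98 and 1.42). In the galactose regulon the GAL1 and GAL10 promoter was the one called in both for 2 of 11 genes, and 3 genes had a body summit in both: GAL4 (the activator), GAL80 (its inhibitor) and PCL10.

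Transcription factors of nutrient and stress response had the highest promoter share among the lists, 13 of 47, with body summits in 14 and no summit in 15. After GAT1 and THI2 came PHO4, the activator of phosphate genes, with 2.17 in replicate 1 and 2.09 in replicate 2, and NRG2, a glucose-dependent repressor, with 2.25 and 2.03. Citric acid cycle genes had promoter summits at 5 of 24 and body summits at 8, with MDH1 (1.99 and 1.86) and MDH3 (2.37 and 1.64), both malate dehydrogenases, leading.

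Cell division and mating genes were near the shares of all genes in their promoters. Of 44 kinetochore genes 6 had a promoter summit and 9 a body summit in both libraries, and 18 had none. NKP2 had 2.40 in replicate 1 and 2.03 in replicate 2, and NNF1 had 2.18 and 1.77. Of 27 cell cycle regulators 3 had a promoter summit in both, all cyclins: CLN2 (2.41 and 2.28), CLB6 (2.11 and 2.31) and CLB5 (2.17 and 1.94). A body summit was found in 9 of these 27. Of 23 mating and pheromone response genes 4 had a promoter summit and 5 a body summit in both, led by STE20, a kinase of the mating pathway, with 2.71 and 2.18, and STE3, the a-factor receptor, with 2.08 and 1.81.

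**Figure D5:**
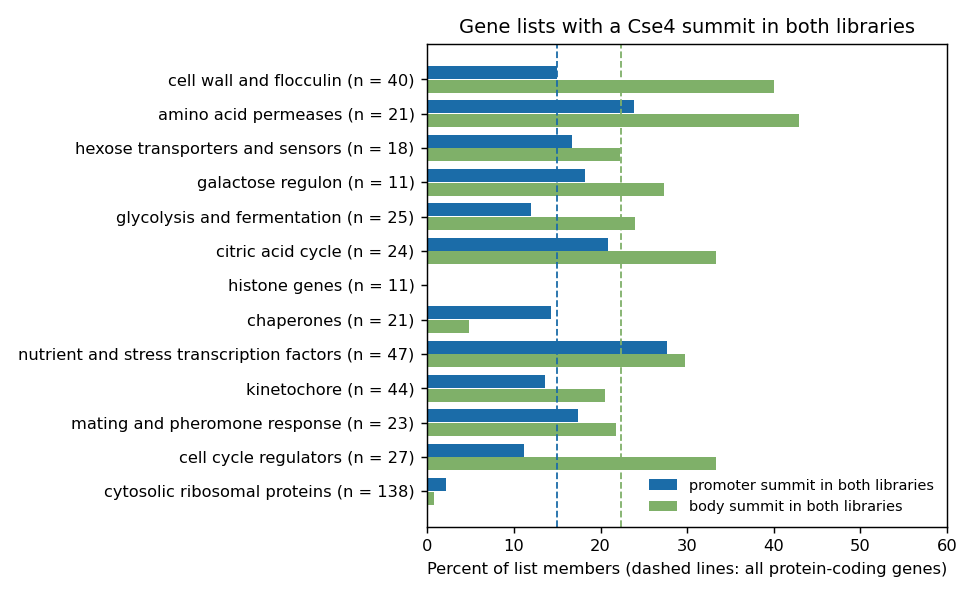
Percent of the genes of each list (y axis, list) with a promoter summit in both libraries and with a body summit in both (x axis, percent), with the shares over all genes drawn as lines at 15 and 22.4. Transcription factors have the highest promoter share, and histone and ribosomal protein genes the lowest of both.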

How the data were processed

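Immunoprecipitated Cse4 was sequenced in 2 libraries of the wild type strain. The input libraries and the peaks of the mutant strains were not used here; the merged lists of those strains served only to count regions. Per the submitters' processing notes, Bowtie 1.0.0, MACS2 2.1.1.20160226 and bedtools 2.25.0 were used with the sacCer3 build; the control and the filters are not given in the sources used here, so the meaning of the local background depends on a control that is not known. The authors' deposited peak lists, 1 per library, give a fold (a ratio of summit pileup to local background), −log10 p and −log10 q (q up to 0.05), a score of 10 times −log10 q and, as another column, the distance from peak start to summit. The deposited merged list joins overlapping peaks of both libraries and gives the mean of their fold. The authors' fold was used to describe and rank peaks within a list.

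Depth was recovered by solving fold and p of each peak for its pileup and local background, taking p as a Poisson tail. The pileup was taken as a whole number, and it gave back the −log10 p within 0.001 for 99.7% and 99.6% of peaks. At 10 peaks of replicate 1 and 18 of replicate 2 on a high local background the error reached 0.0147 and 0.0151. The lowest local background was taken as the genome background. The recovery was tested on simulated data with backgrounds lower than those of the rDNA, URA3 and CSE4 peaks in replicate 2. They were also lower than that of the highest rDNA peak in replicate 1. Overlap needed 1 bp. The 6002 nuclear protein-coding genes came from the RefSeq table of R64, which is sacCer3, with strand from the systematic name. Sequences were not at hand and none are shown. Intervals are Wilson or exact Poisson at 95%.

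The members and lists were chosen with earlier results of these data known. Named genes were the 20 promoters with the best mean rank of fold and genes sharing their summits, the best merged region of each chromosome, the 10 widest regions, the 10 genes with the most body summits, the 5 highest unpaired peaks of each library and up to 4 promoters of each of 13 lists. Alternatives were a −log10 q of at least 10, lists of equal length, other overlaps and promoter widths, each library alone, and, chosen after seeing the data, peaks under 3 times the genome background. Python 3.11.15, numpy 2.4.6, pandas 2.3.3, scipy 1.17.1 and matplotlib 3.10.9 were used.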

Additional observations from a re-analysis of the deposited data

How the results depend on the processing

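Of 50 alternative values 26 were counted as unmoved, 24 as moved and 0 as turned in direction. Only the fold rho could count as turned, so the 0 says nothing of the other results. A mean or density ratio counted as moved beyond the SD of the libraries, a share outside its Wilson interval, a number of regions or genes beyond 1.5 times, and the Jaccard index and rho, which have no error here, at any change, so several of the 24 are small. The peak number and covered kb of either library alone always lie within that SD of their mean. The same holds for the peak number at equal list length, which is that of replicate 1. These values could not count as moved. With a −log10 q of at least 10, 1083 peaks per library and 510.402 kb remained on average, the Jaccard index was 0.309, the overlapped shares were 84.3% and 33.9%, 513 regions, 225 promoters and 210 gene bodies were left, and the fold rho was 0.502. With lists of equal length the Jaccard index was 0.470, the shares were 71.4% of replicate 1 and 68.1% of replicate 2, and the rho was 0.508. Without peaks at 3 or more times the genome background, an alternative chosen after seeing the data that left out 21 and 31 peaks, the index was 0.459 and the rho 0.522. An overlap of 50% gave 87.4%, 56.0% and a rho of 0.527. Promoters numbered 404 at 250 bp, 1755 at 1000 bp and 1698 when any overlap counted. By covered bases the ratio of the densest to the sparsest chromosome was 1.77. Each library alone gave 1143 to 1701 promoters and 1583 to 2285 bodies. Counts of sites in both libraries cannot exceed those of replicate 1, the shallower library. No paired analysis was possible because a single group was described, with no other group to pair it with.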

Other observations

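A local background of 3 or more times the genome background was found at 21 peaks of replicate 1 and 31 of replicate 2. Outside the annotated rDNA and the loci described above, the highest lay over YLR162W and RRT15 on chromosome XII, from 489799 to 490418 in replicate 1, with a fold of 2.04 in replicate 1 and 1.503 in replicate 2 on 17.4 and 21.5 times the genome background. Others lay at the tandem CUP1 metallothionein copies and RSC30 beside them on VIII, and at ENA2, 1 of the sodium pump genes near ENA5. The peak over CUP1-1 from 212358 to 212793 in replicate 1 had a fold of 1.44 on 4.91 times the genome background, and the peak at 212302 to 212526 in replicate 2 had 1.13 on 5.06 times. At ENA2 the fold was 1.32 in replicate 1 and 1.16 in replicate 2, on 3.14 and 3.37 times the genome background. CUP1 and ENA2 have near-identical copies, so their values are uncertain. Further peaks between 3 and 4 times were found in both libraries at HMX1 and at a site near the left end of VI. In 1 library they were found at PST1, BUD20, PUS2 and an intergenic site on XII (replicate 1), and at CDC15 and 4 sites outside annotated genes on II, IV, VIII and XII (replicate 2).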
